A study of Mus musculus with 4 samples.

Results

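The TALE homeobox genes of the Meis, Pbx, Pknox and Tgif families were examined by RNA sequencing in the frontonasal prominence (FNP), the embryonic tissue that forms the nose and snout. The 9 genes are Meis1, Meis2, Meis3, Pbx2, Pbx3, Pbx4, Pknox1, Pknox2 and Tgif1. They were chosen by name, and all 9 were found among the 33707 autosomal genes of the deposited table. The samples were 4 embryos of the FVB/NJ strain, all at E10.5 and the 29-somite stage. Of these, 2 were Smchd1+/+ (WT, 1 female and 1 male by their labels) and 2 were Smchd1 MommeD43/MommeD43 (MD43, both labelled male). MommeD43 is a missense allele of Smchd1 made by ENU mutagenesis, and no further allele or treatment is given for either genotype. SMCHD1 helps to keep genes silent by acting on chromatin. Replicate 2 of both genotypes came from 1 mother, whereas the replicate 1 embryos came from other mothers. Sex, litter and genotype cannot be told apart in these values. The comparison of MD43 with WT asks which transcripts of the developing nose differ in level when SMCHD1 carries this change.

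TALE proteins are homeodomain transcription factors with an extra loop of amino acids inside the homeodomain. PBX proteins pair with MEIS or PKNOX (also called PREP) proteins, and these pairs in turn join HOX and other homeodomain proteins on DNA, so that the family sets where those partners bind. TGIF proteins carry the same kind of homeodomain but act as repressors, including in TGF-beta and retinoic acid signalling. In the face, loss of Pbx genes in the mouse causes clefts of lip and palate, Meis2 is needed in cranial neural crest, and variants of human TGIF1 are linked to holoprosencephaly.

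The table gave 1 log2 RPKM value per genotype (reads scaled to transcript length and to library size, on a log2 scale), with the 2 libraries of a genotype merged by averaging. Therefore no test between genotypes could be run, and the values below have no replicates of their own. Reads given below are the geometric mean of the 2 libraries, recovered from the log2 values, at a depth of 16055882 reads per library for WT and 22328791 for MD43. Each difference is MD43 minus WT in log2 RPKM and carries the smallest standard error that counting alone allows (counting SE). A second error was taken from genes whose 2 library counts could be recovered, and it is called the typical SE. It was 0.17 for genes with 316 to 1000 reads and 0.27 for genes with 50 to 158 reads. It describes how far the 2 libraries of a genotype usually lay apart, not the spread of the gene in question. Genes above 1000 reads are set beside the first of these values.

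All 9 genes were expressed in both genotypes, at nearly the same levels. The number past a 1.5-fold difference was 0 of 9. Of the 15376 genes that reached 10 reads in either genotype, 10.7% passed it and 4.11% passed 2-fold. Among the 9930 of them that lay within the range of levels of the 9, the share was 2.5%. All 9 reached 10 reads, and all but Pbx4 had at least 392 in each genotype. Their differences ranged from -0.23 for Pbx4 to 0.25 for Meis1, with a median of -0.01, beside a median of 0.01 over the 15376 genes. The median size of the difference, without its sign, was 0.14 in the TALE genes, beside 0.12 in genes at the same levels. Of the 9, 6 lay within 1 typical SE of no difference and all 9 within 2. Against counting error alone, 5 lay beyond 2 SE, namely Meis1, Meis2, Meis3, Pbx3 and Tgif1.

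**Figure D1:**
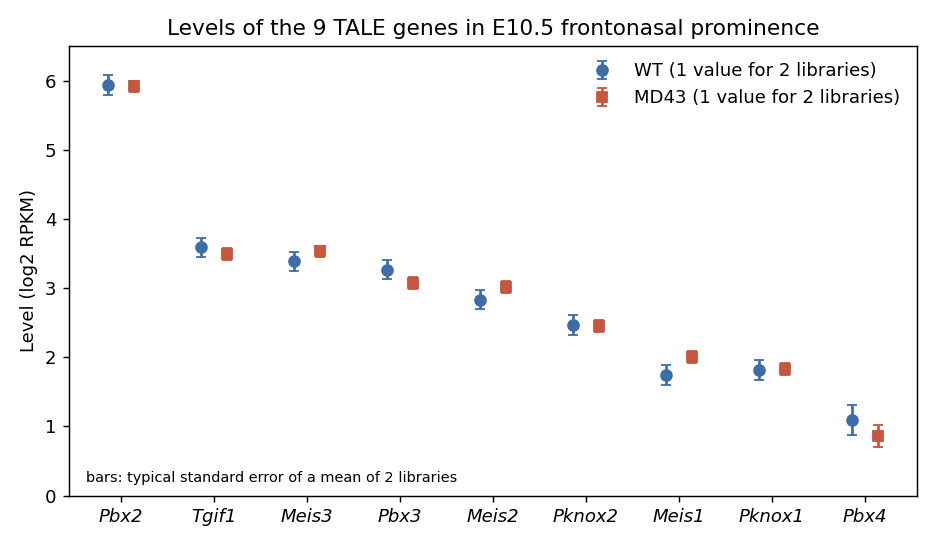
Level of each gene in log2 RPKM (vertical axis) in WT (circles) and MD43 (squares), 1 value for the 2 libraries of a genotype. Bars are the typical standard error of a mean of 2 libraries, estimated from other genes, and Pbx2 stands apart at 5.94 in WT and 5.91 in MD43.

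The Meis genes encode the partners that PBX proteins bind through their amino-terminal part, and all 3 lay higher in MD43. Meis1 (ENSMUSG00000020160, GRCm38 chromosome 11, 18879817 to 19018985, minus strand) had a level of 1.75 log2 RPKM in WT and 2.00 in MD43, from 568 and 942 reads. The difference of 0.25 ± 0.05 (counting SE), or 1.19-fold, was the furthest from 0 among the 9 genes and came to 1.52 typical SE. Corrected for GC content and length it was 0.35, just over 2 typical SE. Among the 15376 genes, 32.2% differed by more before that correction. For MD43 the product of the 2 library counts of Meis1 allowed 1 pair within 4-fold of each other, 811 and 1095. Scaled by the usual ratio of the 2 MD43 libraries, and with the larger count in the deeper library, these stand for 1.92 and 2.08 log2 RPKM, both above the WT value. With the counts in the other order they would stand for 1.49 and 2.52, on either side of it. For WT, 4 pairs were possible, so it cannot be said whether the libraries of the genotypes overlap.

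Meis2 (ENSMUSG00000027210, chromosome 2, 115863064 to 116065839, minus strand), the Meis gene required in cranial neural crest, had a level of 2.83 in WT and 3.01 in MD43, from 1379 and 2173 reads. Its difference was 0.18 ± 0.04 (counting SE), or 1.08 typical SE. Meis3 (ENSMUSG00000041420, chromosome 7, 16175090 to 16186504, plus strand), best known from the developing hindbrain, had 532 reads in WT and 818 in MD43. The level of Meis3 was 3.39 in WT and 3.53 in MD43, a difference of 0.14 ± 0.06 (counting SE) and 0.86 typical SE. The WT product of Meis3 allowed 1 pair within 4-fold, 526 and 539 reads. Scaled to depth these stand for 3.17 and 3.60 log2 RPKM, or for 3.14 and 3.63 in the other order. The MD43 value of Meis3 lay between them in both orders, and by this scaling the 2 WT embryos were further apart in Meis3 than the 2 genotypes were.

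The 3 Meis genes were thus alike in direction, where 54.3% of the genes at the levels of the 9 lay higher in MD43. Their promoters are shown as those of the one family of the 9 genes that lay higher throughout, with Pbx4 as the gene furthest to the other side. The sequences are RefSeq windows on GRCm38.p6, 250 bases before to 50 after a transcript start, printed 5′ to 3′ along the gene. Capitals mark CG dinucleotides, the sites at which DNA is methylated. Meis1 is chr11:19018920-19019219 (minus strand), Meis2 chr2:116064570-116064869 (minus), Meis3 chr7:16175145-16175444 (plus) and Pbx4 chr8:69832374-69832673 (plus).
Meis1: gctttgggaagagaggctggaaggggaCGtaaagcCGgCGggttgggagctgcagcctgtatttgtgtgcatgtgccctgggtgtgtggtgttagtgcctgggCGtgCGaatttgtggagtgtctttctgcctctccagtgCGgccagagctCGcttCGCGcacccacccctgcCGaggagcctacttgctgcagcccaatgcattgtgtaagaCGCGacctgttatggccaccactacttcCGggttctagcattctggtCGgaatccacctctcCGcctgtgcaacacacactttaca
Meis2: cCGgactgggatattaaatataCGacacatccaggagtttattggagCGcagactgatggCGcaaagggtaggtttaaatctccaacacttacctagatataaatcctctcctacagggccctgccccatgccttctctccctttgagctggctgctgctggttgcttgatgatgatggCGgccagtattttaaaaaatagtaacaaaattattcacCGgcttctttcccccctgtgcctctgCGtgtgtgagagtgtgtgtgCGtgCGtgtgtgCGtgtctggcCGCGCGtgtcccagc
Meis3: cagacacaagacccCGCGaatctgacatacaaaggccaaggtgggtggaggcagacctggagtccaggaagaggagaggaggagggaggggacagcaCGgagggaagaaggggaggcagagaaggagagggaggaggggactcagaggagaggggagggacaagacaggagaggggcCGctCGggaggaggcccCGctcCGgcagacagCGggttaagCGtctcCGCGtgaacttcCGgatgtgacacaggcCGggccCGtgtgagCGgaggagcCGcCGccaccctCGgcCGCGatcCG
Pbx4: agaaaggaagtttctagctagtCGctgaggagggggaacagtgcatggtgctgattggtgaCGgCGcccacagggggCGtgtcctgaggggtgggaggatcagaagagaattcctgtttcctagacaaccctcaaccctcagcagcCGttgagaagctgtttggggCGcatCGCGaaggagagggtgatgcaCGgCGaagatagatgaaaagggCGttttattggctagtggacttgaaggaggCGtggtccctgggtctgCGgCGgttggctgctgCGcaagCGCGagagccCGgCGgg

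These windows held 15 CG dinucleotides for Meis1, 13 for Meis2, 21 for Meis3 and 19 for Pbx4, where the median of all 32851 windows was 7. A window was found for 6 of the 9 genes, 10 windows in all. The core bound by MEIS and PKNOX proteins, TGACAG, was searched on both strands. It was present in 19.2% of all windows and in 2 of the 10, both of them starts of Tgif1, and in none of the Meis windows. The longer joint site of PBX and PKNOX, TGATTGAC, which overlaps that core, was in 0.77% of all windows. The joint site of PBX and HOX, TGATTGAT, was in 0.746%. Neither was in any of the 10. One of the Tgif1 windows with the core, chr17:70851161-70851460 on the minus strand, is printed with the core in capitals to show where it lies.
Tgif1: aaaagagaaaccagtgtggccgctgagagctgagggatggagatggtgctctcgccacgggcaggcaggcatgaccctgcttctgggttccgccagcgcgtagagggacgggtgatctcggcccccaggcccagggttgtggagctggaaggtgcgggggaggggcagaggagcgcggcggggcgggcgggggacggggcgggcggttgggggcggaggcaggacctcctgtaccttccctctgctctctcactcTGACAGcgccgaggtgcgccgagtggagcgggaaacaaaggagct

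Pbx genes encode the common partner of MEIS, PKNOX and HOX proteins, and the 3 among the 9 genes lay lower in MD43, 1 of them by next to nothing. Pbx2 (ENSMUSG00000034673, chromosome 17, 34591266 to 34597400, plus strand) was the most abundant of the 9 genes, at 61.2 RPKM in WT and 60.3 in MD43. On the log2 scale Pbx2 had 5.94 in WT and 5.91 in MD43, from 3578 and 4900 reads. Its difference of -0.02 ± 0.02 (counting SE) was within its counting error. Its level was above that of 95.8% of the 15376 genes.

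Pbx3 (ENSMUSG00000038718, chromosome 2, 34171457 to 34373142, minus strand) had a level of 3.27 in WT and 3.08 in MD43, from 945 and 1149.7 reads. The difference was -0.19 ± 0.04 (counting SE), or 1.16 typical SE. The WT product of Pbx3 allowed 1 pair within 4-fold, 791 and 1129 reads. In the order of depth they stand for 3.24 and 3.29 log2 RPKM, both above the MD43 value, whereas in the other order they would be 2.78 and 3.76. Corrected for GC content and length, the difference of Pbx3 was -0.06. Pbx4 (ENSMUSG00000031860, chromosome 8, 69832491 to 69872292, plus strand) was the lowest of the 9 genes, with 75.9 reads in WT and 90 in MD43. Its level was 1.09 in WT and 0.86 in MD43. The difference of Pbx4, -0.23 ± 0.16 (counting SE), was smaller than its typical SE of 0.27. The WT counts of Pbx4 were either 67 and 86 or 43 and 134.

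Pknox1 and Pknox2, whose products compete with MEIS for PBX, had nearly the same level in both genotypes. Pknox1 (ENSMUSG00000006705, chromosome 17, 31564734 to 31607693, plus strand) had 1.82 in WT and 1.84 in MD43, from 392 and 552 reads. Its difference was 0.02 ± 0.07 (counting SE). The WT product of Pknox1 allowed counts of 379 and 406 or of 203 and 758. Pknox2 (ENSMUSG00000035934, chromosome 9, 36890982 to 37147407, minus strand) had 2.46 in WT and 2.45 in MD43, from 914 and 1259 reads. Its difference was -0.01 ± 0.04 (counting SE), and 94.7% of the 15376 genes differed by more. The MD43 product of Pknox2 allowed counts of 1018 and 1556 or of 778 and 2036.

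Tgif1 (ENSMUSG00000047407, chromosome 17, 70844205 to 70853546, minus strand), the repressor of the group, had a level of 3.59 in WT and 3.50 in MD43, from 1086 and 1418 reads. Its difference was -0.09 ± 0.04 (counting SE), or 0.54 typical SE. A processed pseudogene of Tgif1 is annotated in GENCODE, and its reads were not analysed here. Of the 9 genes, 5 overlap another annotated gene, and in 3 of them (Meis1, Pbx2 and Pknox1) the other gene had at least 10 reads. The largest of these was AC166575.1, annotated as a sense intronic transcript of Pknox1, with 118 reads in WT and 148 in MD43, or 30.1% and 26.7% of the reads of Pknox1. On the opposite strand of Pknox1, AC166172.4 had 14.5 and 26.5 reads. Whether reads were shared between these genes was not tested.

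**Figure D2:**
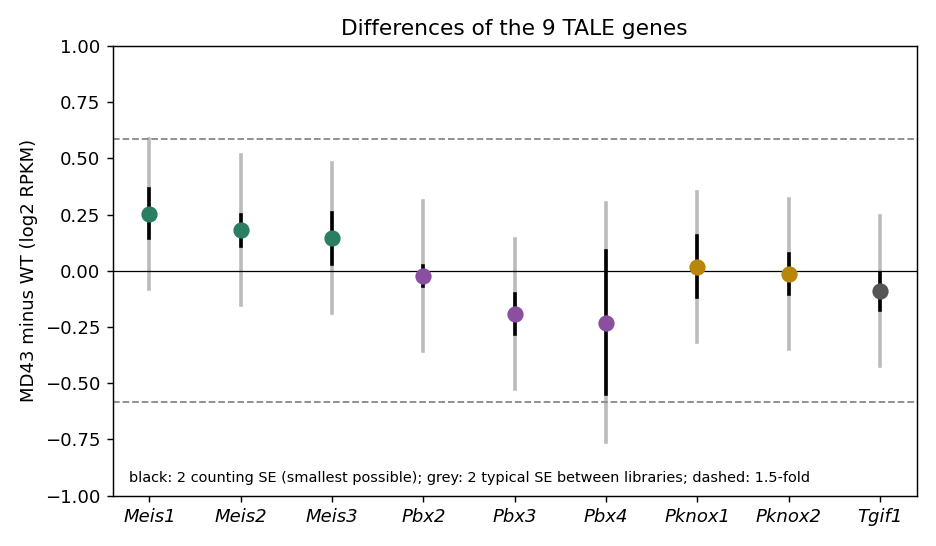
Difference of each gene, MD43 minus WT in log2 RPKM (vertical axis), coloured by family. Black bars span 2 counting SE, grey bars 2 typical SE between libraries, and dashed lines mark 1.5-fold; every grey bar includes 0 and every point lies between the dashed lines.

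The order of levels, per length of transcript, was nearly the same in both genotypes. In WT it ran Pbx2, Tgif1, Meis3, Pbx3, Meis2, Pknox2, Pknox1, Meis1 and Pbx4. In MD43, Meis3 stood before Tgif1 and Meis1 before Pknox1. Neither exchange involved neighbours that were apart by more than 2 typical SE. The step from Pbx2 to the next gene was the largest, 5.09-fold in WT and 5.22-fold in MD43. The other neighbours apart by more than 2 typical SE in both genotypes were the last pair, where Pbx4 followed 1.58-fold lower in WT and 1.96-fold lower in MD43. The remaining steps beyond that limit were Pbx3 to Meis2 and Pknox2 to Pknox1 in WT, and Tgif1 to Pbx3, Meis2 to Pknox2 and Pknox2 to Meis1 in MD43. In WT the other 4 steps lay within it, among them Tgif1 to Meis3 (0.20 log2) and Pknox1 to Meis1 (0.07 log2). In MD43 the other 3 did, among them Meis3 to Tgif1 (0.03 log2). The lengths used were those of all annotated exons joined, from 2217 bases for Pbx4 to 12043 for Meis2, so a gene with long alternative exons has a lower RPKM.

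Summed over the genes of a family, the 3 Meis genes had 20.9 RPKM in WT and 23.6 in MD43, a difference of 0.17 log2. Pbx2, Pbx3 and Pbx4 summed to 73.0 RPKM in WT and 70.5 in MD43, a difference of -0.05 log2. Pbx2 made up most of the sum in both genotypes. The Pbx sum was thus 3.48 times the Meis sum in WT and 2.98 times in MD43. Both sums cover only the genes described here. The sum over all 9 genes was 115 RPKM in WT and 114 in MD43.

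How far 2 libraries of a genotype lay apart was read from genes whose read product has exactly 1 pair of whole factors within 4-fold of each other. There were 965 such genes in MD43 and 1056 in WT between 316 and 1000 reads. At this size a whole product is less certain than in genes with fewer reads. In MD43 the larger count was typically 1.51 times the smaller, with a standard deviation of 0.17 in the log2 ratio. In WT it was 1.38 times, with a standard deviation of 0.29, a wider spread between the WT libraries than between the MD43 libraries. Of the 18 values of the 9 genes (9 per genotype), 3 gave 1 pair, 9 gave several pairs and 6 gave no product that could be read as a whole number. The log2 ratio was 0.43 for Meis1 in MD43 and 0.51 for Pbx3 in WT, each within 1 standard deviation of the usual ratio. For Meis3 in WT it was 0.04, which lay 0.43 from the usual ratio and so beyond 1 standard deviation.

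**Figure D3:**
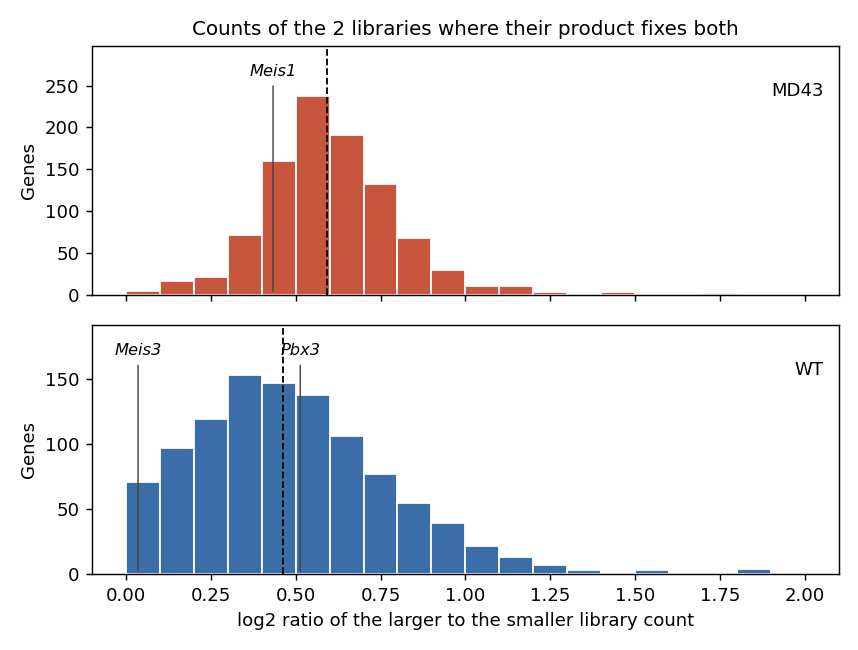
Number of genes (vertical axis) by the log2 ratio of the larger to the smaller of the 2 library counts (horizontal axis), for MD43 (top) and WT (bottom), in genes with 316 to 1000 reads whose product allows 1 pair of counts. Dashed lines mark the fitted ratio of 0.59 for MD43 and 0.46 for WT, and thin lines mark Meis1, Meis3 and Pbx3; Meis3 lies near 0, to the left of the fitted WT ratio.

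**Figure D4:**
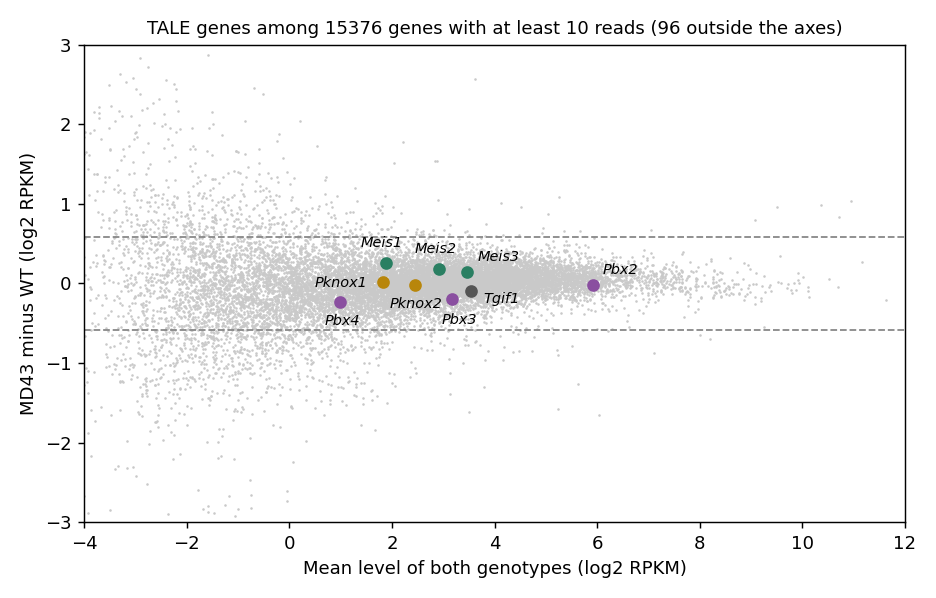
Difference, MD43 minus WT in log2 RPKM (vertical axis), against the mean level of both genotypes in log2 RPKM (horizontal axis) for the 15376 genes that reached 10 reads (grey; 96 lie outside the axes), with the 9 TALE genes in colour. Dashed lines mark 1.5-fold, and all 9 genes lie inside the cloud.

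Genes that work with the TALE factors were then described from fixed lists. Of the other TALE genes, 8 of 9 had at least 10 reads, 6 of them lower in MD43, and their median difference was -0.26. Past 1.5-fold, 2 of the 8 were lower and 0 higher, where 6.43% and 4.23% of the 15376 genes were. These 2 belong to the Iroquois branch of the family. Irx2 had 51.6 reads in WT and 38.2 in MD43, a difference of -0.91 ± 0.22 (counting SE). Irx1, named for the count and outside the rule for named genes, had 34.9 and 16.2 reads and a difference of -1.58 ± 0.31 (counting SE). Irx5 (-0.50 ± 0.12) and the tendon regulator Mkx (-0.31 ± 0.12) did not pass.

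The HOX partners were barely detected at this depth. None of the 12 Hox genes of paralogue groups 1 to 4 had 10 reads, and the highest value of any of them was 6 reads in MD43 and, in other genes, 2.12 in WT. Of 8 other homeodomain partners, 2 had 10 reads. These were Emx1 (0.54 ± 0.08) and Emx2 (0.30 ± 0.04), regulators of the dorsal telencephalon, and neither passed 1.5-fold. The 4 genes that act on PBX or MEIS proteins did not pass either. Pbxip1, which holds PBX away from DNA, differed by -0.15 ± 0.06, and Crbn, the substrate receptor of a ubiquitin ligase that targets MEIS2, by 0.06 ± 0.05. The 8 corepressors and SMAD partners of TGIF ranged from -0.02 to 0.11, and 0 of 8 passed, where 10.7% of the 15376 genes did. The furthest from 0 of them were Ctbp1 (0.11 ± 0.02), Ctbp2 (0.08 ± 0.03) and Sin3a (0.06 ± 0.03), each smaller than the typical SE of 0.17.

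Among 6 targets of PBX and MEIS in the midface and eye, 1 was lower by over 1.5-fold. Of the 15376 genes, 6.43% were lower by that much. Wnt3, a Wnt ligand of the facial ectoderm, had 127 reads in WT and 63.2 in MD43, a difference of -1.48 ± 0.16 (counting SE), or 2.79-fold lower. The eye regulator Pax6 differed by -0.35 ± 0.03. Of 9 holoprosencephaly genes with 10 reads, 1 was lower and 1 higher by over 1.5-fold. The shares over the 15376 genes were 6.43% lower and 4.23% higher. Zic2 had 908 reads in WT and 700.5 in MD43, a difference of -0.85 ± 0.05 (counting SE). Nodal, named for the count, had 3.91 and 10.2 reads and a difference of 0.91 ± 0.61 (counting SE). It reached 10 reads only in MD43, so its place in the count rests on that filter. Shh (-0.34 ± 0.09) and its receptor gene Ptch1 (-0.53 ± 0.03) did not pass.

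Retinoic acid raises Meis1 and Meis2 in many embryonic tissues, and the enzymes that make it from retinaldehyde are among the genes listed. Aldh1a3, a retinaldehyde dehydrogenase of the nasal region and eye, had 1211 reads in WT and 3275 in MD43, a difference of 0.96 ± 0.03 (counting SE), or 1.94-fold higher. Its relative Aldh1a1 had 66.0 reads in WT and 12.8 in MD43, a difference of -2.84 ± 0.31 (counting SE), or 7.14-fold lower. Over the 15376 genes, 4.23% were higher and 6.43% lower by over 1.5-fold. Of the 8 genes of this list with 10 reads, 2 were higher and 1 lower by that much. The third was Cyp26c1, an enzyme that breaks retinoic acid down, with 5.29 and 11.8 reads, which is named for the count. It too reached 10 reads only in MD43, so Aldh1a3 is the one higher gene of this list that does not rest on the filter. The receptor gene Rarb differed by -0.18 ± 0.06. Whether any of these genes bears on the Meis values was not tested.

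**Figure D5:**
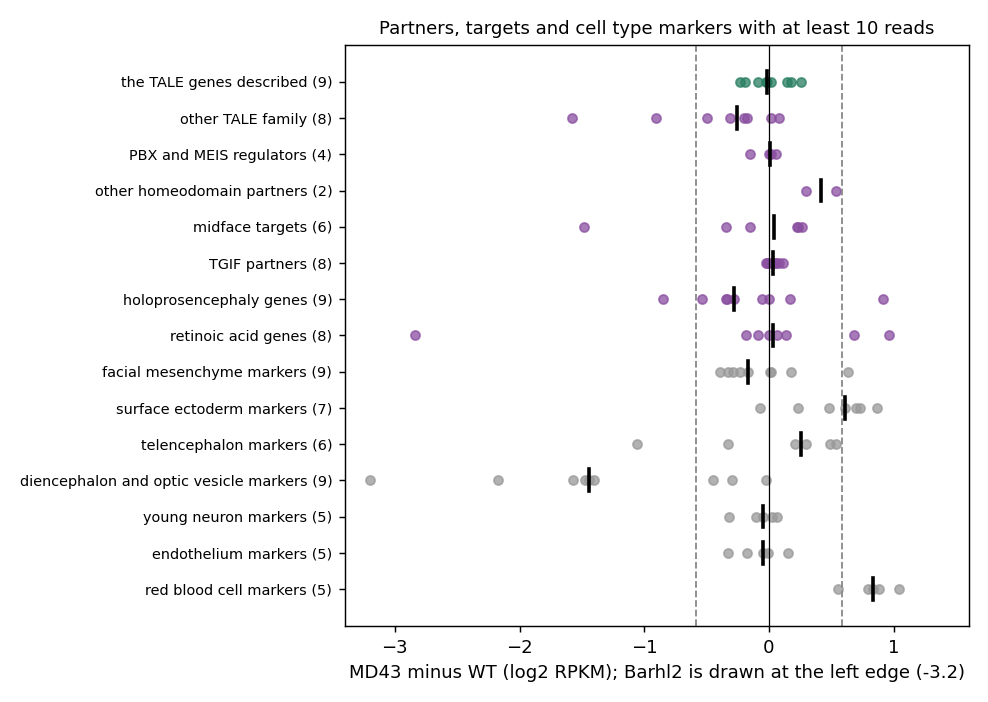
Difference, MD43 minus WT in log2 RPKM (horizontal axis), of each gene that reached 10 reads, by list (rows; number of genes in brackets), with the median as a black bar and dashed lines at 1.5-fold. The 9 TALE genes (green) lie between -0.23 and 0.25, while the diencephalon markers reach furthest left. Barhl2, at -5.91 and with 4.24 reads in MD43, is drawn at the edge.

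The dissected pieces also differed in markers of neighbouring tissues. In bulk tissue, fewer cells of a type and less RNA per cell cannot be told apart. Over the 15376 genes, 4.23% were higher and 6.43% lower in MD43 by over 1.5-fold. Markers of facial mesenchyme were present throughout, 9 of 9 with at least 10 reads, and summed to 155 RPKM in WT and 154 in MD43. The 7 surface ectoderm markers summed to 116 RPKM in WT and 179 in MD43, and 4 of 7 were higher by over 1.5-fold, such as Cdh1 (0.73 ± 0.05). The 5 red blood cell markers measured summed to 3056 and 5810 RPKM, all 5 being higher and 4 of 5 by over 1.5-fold. The 9 markers of diencephalon and optic vesicle summed to 39.0 RPKM in WT and 22.5 in MD43. All 9 were lower, 6 of 9 by over 1.5-fold, such as Rax (-2.17 ± 0.24). Of these 6, Barhl2 reached 10 reads only in WT, with 183 reads there and 4.24 in MD43. The 6 telencephalon markers summed to 109 and 132 RPKM, with Neurog2 (-1.06 ± 0.10) lower by over 1.5-fold. The sums were 97.5 and 97.0 RPKM for young neurons and 7.91 and 7.39 RPKM for endothelium, with no gene past 1.5-fold. Their part in the values of the TALE genes was not tested. Smchd1 itself had 3.31 log2 RPKM in WT and 3.30 in MD43, a difference of -0.01 ± 0.02 (counting SE), which does not check a missense allele.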

How the data were processed

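RNA was sequenced from the FNPs of 4 embryos, 2 WT and 2 MD43, from 100 ng of total RNA with a stranded poly(A) library kit. Groups and replicate numbers were taken from the sample titles. The authors trimmed reads with Trim Galore 0.4.4 and mapped them with HISAT2 2.0.5 to GRCm38.p6 (versions from the submitters' processing notes), then quantified genes in SeqMonk. The deposited values are log2 RPKM, which the authors scaled to length and depth, 1 column per genotype, on 19 autosomes. The table also holds columns of the authors' own comparison (a false discovery rate, a fold change and a mean), which were not used.

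GENCODE M21 (GRCm38) was matched on symbol and position, and 33100 of 33707 genes matched. Genes without reads share 1 difference, -0.4758, which gives the value of 1 read. A library without reads counts as 0.9 reads. The square of a value relative to this gave the product of the 2 library counts. Products between 1000 and 100000 were whole within a relative tolerance of 3e-07 (or 0.001, if larger) for 98.1% in MD43 and 97.6% in WT. A product multiplied by the square root of 2 was so in 1.89% in both. Between 100000 and 1000000 the shares were 91.4% in MD43 and 89.1% in WT, against 36.8% and 34.2% for multiplied products. The single pairs of Meis1, Meis3 and Pbx3 and the typical SE of 0.17 come from that range. A whole product is therefore less certain there. A folded normal distribution was fitted to the log2 ratios of products with 1 pair of factors, and the typical SE of a difference combines the fitted standard deviations of both genotypes, each divided by 2. The recovery was tested on simulated data, with a rounding error set below the tolerance, so that test does not measure this uncertainty. GC content was taken from the longest annotated transcript. Analyses used Python 3.11.15, numpy 2.4.6, pandas 2.3.3 and scipy 1.17.1.

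The members and gene lists were chosen with earlier results of these data known. Named genes are the 9 members, Smchd1 and, from each other list, those among the 3 furthest from 0 or past 1.5-fold with at least 50 reads in a genotype; a gene that this rule names may be not reported here. Intervals and errors cover counting or the usual spread between libraries, as stated.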

Additional observations from a re-analysis of the deposited data

How the results depend on the processing

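No paired analysis was possible because only 1 value per genotype was given, and for the same reason no library could be left out in turn. None of the 9 genes passed 1.5-fold after centring to the overall median or after correcting for GC content and length. The count also stayed at 0 with a pseudocount (0.1 or 1 RPKM), with no filter or at least 50 reads, and at a 2-fold limit. These latter settings could not have raised it, so they do not test it. A pseudocount only shrinks a difference, and the 2-fold limit is stricter. Both filters keep even the lowest gene, Pbx4, with its 75.9 reads in WT and 90 in MD43. Over 36 values (9 genes under both pseudocounts, the centring and the correction) no sign changed, and none moved by over 1 typical SE. A pseudocount cannot change a sign. The centring took 0.006 from every gene, less than the size of any difference (the smallest was -0.015, for Pknox2). Only the correction for GC content and length could therefore have changed a sign. The furthest from 0 of the 36 values was Meis1 at 0.35 after the GC content and length correction, which is over 2 typical SE (0.33). The number of all genes past the limit was 1640. It was 242 with a pseudocount of 1 RPKM, 4047 with no filter, 590 with at least 50 reads and 632 at 2-fold. With pairs of factors within 3-fold, an alternative chosen after seeing the data, 5 values gave 1 pair and the typical SE was 0.17, but that for Pbx4 was 0.39. Of 84 alternatives for the list medians, 81 stayed within 1 typical SE. The median of the other homeodomain partners was -0.44 with no filter, from 0.42, and that of the diencephalon and optic vesicle markers was -1.27 and -0.48 with pseudocounts of 0.1 and 1 RPKM, from -1.44. That of the retinoic acid genes went from 0.03 to -0.002 with either other filter. The causes were not tested.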
